A study of Mus musculus with 9 samples.

Results

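The genes described here are 10 genes by which T lymphocytes are recognized in a tissue: Cd3d, Cd3e, Cd3g, Cd4, Cd8a, Cd8b1, Lck, Zap70, Cd5 and Foxp3. They were chosen by name, with earlier results of these data known. Each was read through its brightest probe, the probe with the highest mean log2 intensity over the 9 arrays. All 10 were found among the 19698 genes that the arrays measured under a named probe. The arrays were one-color Agilent microarrays of lung RNA from male C57BL/6 mice of 10 weeks of age, 4 labeled Control and 5 labeled Irradiated, with the left lung as the irradiated organ. Anesthesia with zoletil and rompun during irradiation is listed for every sample, the controls included, whereas the study's methods describe the control lungs as those of mice that were not irradiated. Neither the dose nor the region nor the time of irradiation is labeled, so the 5 irradiated arrays may differ in all of these. RNA from replicate experiments was pooled before labeling, so that an array is a pool of animals. The p-values below set the difference between groups against the spread between such pools within groups. Among the irradiated arrays, that spread may include differences of dose, region or time. In tissue RNA, fewer T cells and less RNA of a gene per T cell cannot be told apart.

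T cells recognize antigen through a receptor whose signal enters the cell through the CD3 chains. The coreceptor CD4 or CD8 brings the kinase Lck to that receptor, Lck phosphorylates the CD3 chains, and the kinase ZAP-70 binds to them and passes the signal on. In the lung, T cells circulate through the vessels, reside in the tissue and gather in lymphoid follicles around the airways.

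The tissue label was borne out by the lung markers, since Sftpc, the surfactant protein C of type II alveolar cells, was the brightest probe on all 9 arrays. An irradiated and a control array stood apart in their muscle genes. Irradiated array 1 had a log2 intensity of 7.33 for Myh6, a myosin of heart muscle, against 15.87 to 16.98 on the other arrays. Control array 3 had 15.63 for Tnnc2, a troponin of fast skeletal muscle, against 7.27 to 8.13 elsewhere. The position of the spots on the scanned image and the local background also tied a control array to an irradiated array in 4 cases, called scan pairs here. They joined control 1 with irradiated 2, control 2 with irradiated 3, control 3 with irradiated 4, and control 4 with irradiated 5, and irradiated 1 had no partner. What these shared features stand for is not stated. Results are therefore given over all 9 arrays and within the scan pairs. For each T-cell identity gene the range on leaving out an array is given as well. Values without irradiated array 1 or control array 3 are named for some genes.

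None of the 10 genes passed the test between irradiated and control lungs. At an adjusted p below 0.05 (limma, adjusted over all 39302 probes), 0 of the 10 were called, where 0.333% of the probes and 0.416% of the genes were called. At an unadjusted p below 0.05 the count was also 0 of 10, against 12.3% of all genes. The 2 groups overlapped for all 10 genes, whereas they lay apart for 5.15% of all genes, with the irradiated arrays higher for 3.4% and lower for 1.76%. The median difference of the 10 genes, irradiated minus control, was 0.025 on the log2 scale, beside 0.0085 over all genes, of which the middle 50% lay between -0.15 and 0.17. The differences of the 10 genes ran from -0.28 for Cd4 to 0.49 for Foxp3, 6 of them above 0 and 4 below. All 10 genes were well above background on all 9 arrays.

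**Figure D1:**
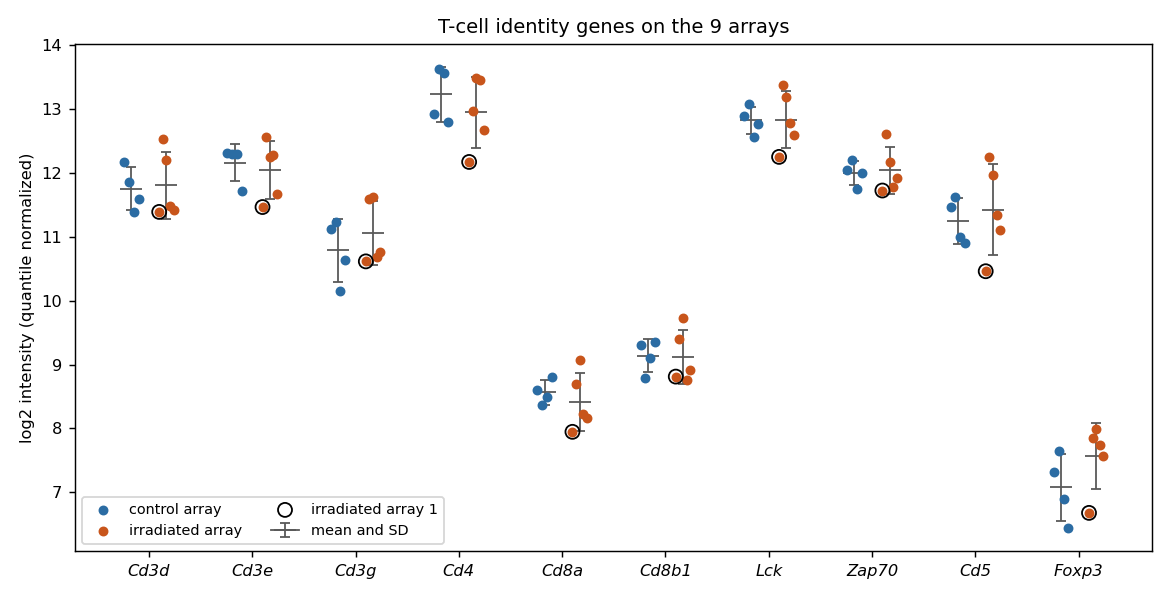
Log2 intensity of the 10 T-cell identity genes (y axis) on the 4 control arrays (blue) and the 5 irradiated arrays (orange), with the mean and SD of each group in gray and irradiated array 1 circled. The groups overlap for every gene, and irradiated array 1 is the lowest of the 9 arrays for 6 genes. Heights are not comparable between genes, since each gene was read by another probe.

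The 3 CD3 chains, which carry the receptor's signaling motifs, showed no common difference. Cd3d had log2 intensities of 12.18, 11.86, 11.39 and 11.60 on control arrays 1 to 4, and 11.39, 12.53, 12.21, 11.49 and 11.42 on irradiated arrays 1 to 5. Irradiated arrays 2 and 3 were the highest, and the other irradiated arrays lay at the low end of the controls. The difference was 0.051 ± 0.27 (SE, 4 control and 5 irradiated arrays), a ratio of 1.04 with a 95% interval from 0.688 to 1.56 (limma, adjusted p = 0.990).

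Cd3e had log2 intensities of 12.32, 12.31, 12.30 and 11.73 on the controls and 11.47, 12.57, 12.26, 12.28 and 11.67 on the irradiated arrays. Control 4, irradiated 1 and irradiated 5 formed a low set, and the other 6 arrays were close together. The difference was -0.12 ± 0.23 (SE), a ratio of 0.923 with an interval from 0.645 to 1.32 (limma, adjusted p = 0.945).

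Cd3g gave 11.12, 11.23, 10.15 and 10.64 on the controls and 10.62, 11.59, 11.63, 10.69 and 10.77 on the irradiated arrays. Control 3 was the lowest and irradiated 2 and 3 were the highest. Here the difference was 0.27 ± 0.29 (SE), a ratio of 1.21 with an interval from 0.771 to 1.89 (limma, adjusted p = 0.853). Without control array 3, the difference of Cd3g was 0.062.

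The 3 CD3 genes are neighbors on chromosome 9 in the RefSeq annotation of GRCm38.p6. Cd3d and Cd3g start 1355 bases apart and run in opposite directions, and Cd3e starts 27825 bases from Cd3d. Of the 10 genes, 8 were found in the RefSeq promoter table. The 250 bases before the listed start are shown for the CD3 genes, as genes that share a locus, and for Foxp3, whose profile over the arrays departed from theirs. Each runs 5′ to 3′ toward the gene, in lower case, with short motifs in capitals. Cd3d lies on the plus strand of chr9:44981536-44981785, Cd3e on the minus strand of chr9:45009612-45009861, Cd3g on the minus strand of chr9:44980432-44980681, and Foxp3 on the plus strand of chrX:7579426-7579675, the upstream of 2 listed starts.
Cd3d: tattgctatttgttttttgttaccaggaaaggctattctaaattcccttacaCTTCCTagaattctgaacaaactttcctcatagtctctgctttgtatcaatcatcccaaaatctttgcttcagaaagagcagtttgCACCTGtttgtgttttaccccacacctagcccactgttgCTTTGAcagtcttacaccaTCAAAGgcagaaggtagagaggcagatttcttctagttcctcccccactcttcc
Cd3e: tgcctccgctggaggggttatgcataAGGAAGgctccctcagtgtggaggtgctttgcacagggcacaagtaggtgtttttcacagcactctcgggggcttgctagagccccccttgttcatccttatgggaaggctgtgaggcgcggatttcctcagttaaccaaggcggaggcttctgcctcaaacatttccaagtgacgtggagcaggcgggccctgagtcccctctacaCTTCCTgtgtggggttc
Cd3g: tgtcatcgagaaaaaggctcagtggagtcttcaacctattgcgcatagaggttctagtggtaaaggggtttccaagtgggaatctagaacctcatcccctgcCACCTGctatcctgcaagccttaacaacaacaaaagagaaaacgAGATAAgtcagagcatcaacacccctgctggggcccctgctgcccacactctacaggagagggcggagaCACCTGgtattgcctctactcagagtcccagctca
Foxp3: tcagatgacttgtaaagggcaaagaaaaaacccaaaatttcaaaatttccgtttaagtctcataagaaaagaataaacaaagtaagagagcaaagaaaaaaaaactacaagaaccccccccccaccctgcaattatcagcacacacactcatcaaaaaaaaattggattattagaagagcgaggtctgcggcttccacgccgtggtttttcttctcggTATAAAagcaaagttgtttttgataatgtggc

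The motifs were searched as plain letters on both strands, and none of the matches shown overlap. The core letters of ETS factors, AGGAAG, were found 1 time before Cd3d and 2 times before Cd3e, and 29.5% of all 32851 windows of 250 bases in the table held them. Letters bound by TCF and LEF factors, CTTTGA, were found 2 times before Cd3d, beside 13.8% of windows. The letters CAGGTG, an E-box, were found 1 time before Cd3d and 2 times before Cd3g, beside 17.2% of windows. The GATA factor letters, AGATAA, were found 1 time before Cd3g, beside 9.99% of windows. Before Foxp3 the only match was to TATAAA, the letters of the TATA box, 32 bases from its start and held by 12.4% of windows. Letters of RUNX factors, TGTGGT, and of NFAT, written as GGAAAA, were in none of the 4 stretches shown, and 14.0% and 20.4% of windows held them. These matches were not tested for any relation to the intensities.

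The coreceptors mark the helper and the cytotoxic lineage, and neither passed the test. Cd4, which binds MHC class II and marks helper and regulatory T cells, had log2 intensities of 12.93, 13.63, 13.57 and 12.80 on the controls and 12.17, 12.97, 13.50, 13.46 and 12.67 on the irradiated arrays. Irradiated 1 was the lowest array and control 2 the highest. The difference was -0.28 ± 0.29 (SE), a ratio of 0.825 with an interval from 0.526 to 1.29 (limma, adjusted p = 0.849), and it was -0.083 without irradiated array 1. A second, dimmer probe of Cd4, printed as 10 spots with an SD of 0.091 to 0.24 between them on each array, differed by -0.033 ± 0.22 (SE).

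Cd8a, the chain through which CD8 binds MHC class I, had log2 intensities of 8.61, 8.36, 8.49 and 8.81 on the controls and 7.95, 8.70, 9.07, 8.22 and 8.16 on the irradiated arrays. The irradiated arrays lay on both sides of the whole control range. Its probe was printed as 10 spots that agreed within an SD of 0.033 to 0.076 on each array. The difference was -0.15 ± 0.23 (SE), a ratio of 0.903 with an interval from 0.632 to 1.29 (limma, adjusted p = 0.915). Leaving out an array gave -0.31 (without irradiated 3) to -0.028 (without irradiated 1). A dimmer probe to another transcript of Cd8a differed by 0.094 ± 0.34 (SE).

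Cd8b1, the partner chain of Cd8a in conventional cytotoxic T cells, was at 9.30, 8.79, 9.10 and 9.36 on the controls and 8.81, 9.41, 9.73, 8.77 and 8.91 on the irradiated arrays. As for Cd8a, irradiated 3 was the highest array. The difference was -0.013 ± 0.22 (SE), with a 95% interval from -0.51 to 0.49 on the log2 scale (limma, adjusted p = 1.00).

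The 2 kinases next to the receptor gave the narrowest intervals of the 10. Lck had log2 intensities of 12.90, 13.08, 12.57 and 12.77 on the controls and 12.25, 13.38, 13.19, 12.78 and 12.60 on the irradiated arrays. Its difference was 0.0099 ± 0.22 (SE), a ratio of 1.01 with an interval from 0.721 to 1.41 (limma, adjusted p = 1.00). Irradiated arrays 1 and 2 were the lowest and the highest array for this gene.

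Zap70 had log2 intensities of 12.05, 12.21, 11.76 and 12.00 on the controls and 11.73, 12.62, 12.17, 11.78 and 11.92 on the irradiated arrays, again with irradiated 1 lowest and irradiated 2 highest. The difference was 0.040 ± 0.18 (SE), a ratio of 1.03 with an interval from 0.777 to 1.36 (limma, adjusted p = 0.986). A second probe of Zap70 differed by 0.080 ± 0.18 (SE). Zap70 had the smallest spread within groups of the 10 genes, with an SD of 0.30.

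Cd5, an inhibitory receptor that dampens T-cell receptor signals and is also carried by B-1 cells, varied most within groups, with an SD of 0.58. It gave 11.47, 11.63, 11.00 and 10.90 on the controls and 10.46, 12.25, 11.97, 11.34 and 11.11 on the irradiated arrays. Irradiated 1 lay below and irradiated 2 and 3 above the control range. The difference was 0.18 ± 0.34 (SE), a ratio of 1.13 with an interval from 0.672 to 1.90 (limma, adjusted p = 0.939).

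Foxp3, the transcription factor that defines regulatory T cells, had the largest difference of the 10. Its log2 intensities were 7.31, 7.64, 6.90 and 6.44 on the controls and 6.68, 7.84, 7.99, 7.75 and 7.57 on the irradiated arrays. Irradiated arrays 2, 3 and 4 lay above all controls, irradiated 5 lay within the control range near its top, and irradiated 1 lay among the low controls. The difference was 0.49 ± 0.32 (SE), with a 95% interval from -0.22 to 1.20 on the log2 scale (limma, adjusted p = 0.703). Leaving out an array gave 0.28 (without control 4, adjusted p = 0.854) to 0.70 (without irradiated 1, adjusted p = 0.328). It depended on the signal used, with 0.30 after normexp background correction or scaling to the 75th percentile and 0.24 in the authors' normalized values.

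**Figure D2:**
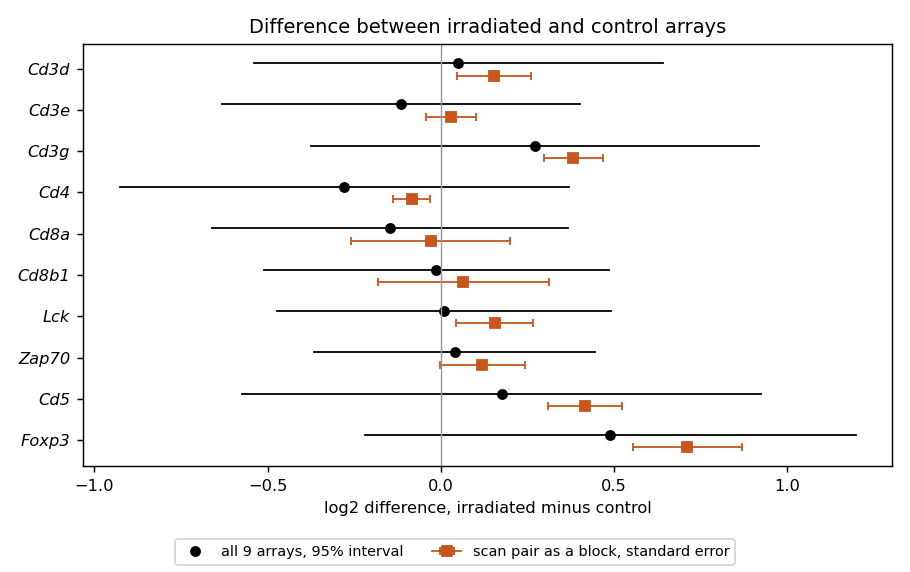
Difference in log2 intensity, irradiated minus control (x axis), for each gene. Black points and lines give the fit over all 9 arrays with its 95% interval, all of which span 0. Orange squares give the fit with the scan pair as a block, to which irradiated array 1 contributes nothing, with the standard error.

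Arrays of the irradiated group lay on both sides of the controls. On irradiated array 1, 0 of the 10 genes lay above their control mean and the mean deviation from it was -0.53. It was the lowest array for 6 of the 10 genes, and 10.5% of all genes had their lowest value there. Irradiated arrays 2 and 3 were the opposite, with mean deviations of 0.50 and 0.49, and the highest value of 9 of the 10 genes lay on one of them, compared with 19.2% of all genes. Irradiated 4 had a mean deviation of -0.025, within the control arrays, which ran from -0.17 to 0.19, and irradiated 5 had -0.20, just below them. Single genes departed from these means, since Cd4 was at -0.27 on irradiated 2 and -0.56 on irradiated 5, and Foxp3 at 0.67 on irradiated 4.

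The spread of each of the 10 genes within groups was larger than the median of all genes, 0.26 on the log2 scale. It ranged from 0.30 for Zap70, above 57.9% of genes, to 0.58 for Cd5, above 85.4% of genes. For Cd4 and Foxp3 it was 0.51 and 0.52.

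Foxp3 and Cd4 departed most from the common profile. Foxp3 stood above the median deviation of the other 9 genes on every irradiated array. The values were -0.40 against -0.58 on irradiated 1, 0.77 against 0.55 on irradiated 2, 0.92 against 0.46 on irradiated 3, 0.67 against -0.097 on irradiated 4 and 0.49 against -0.23 on irradiated 5. On the control arrays it was also the higher on 1, 2 and 3 and the lower on control 4, at -0.63 against -0.14. The difference between Foxp3 and the other genes was not tested.

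The genes whose profiles lay closest to the mean profile of the 10 were searched among 15225 genes well above background on all 9 arrays. Likeness was the root mean square distance between profiles, each centered on its own mean. Those described here are Rnf19b, an E3 ubiquitin ligase gene, at 0.11, Cd28, the costimulatory receptor of T cells, at 0.11, Thy1, a surface glycoprotein of T cells, at 0.11, and Cd52, a surface glycoprotein of lymphocytes, at 0.12. The median gene lay at 0.40, and a flat profile would lie at 0.32. Among the 10 themselves, Lck lay nearest to their mean at 0.076, whereas Foxp3 lay at 0.34 and Cd4 at 0.39, farther than a flat profile. None of these 4 genes was called between the groups, with differences from -0.078 for Thy1 to 0.13 for Cd52.

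**Figure D3:**
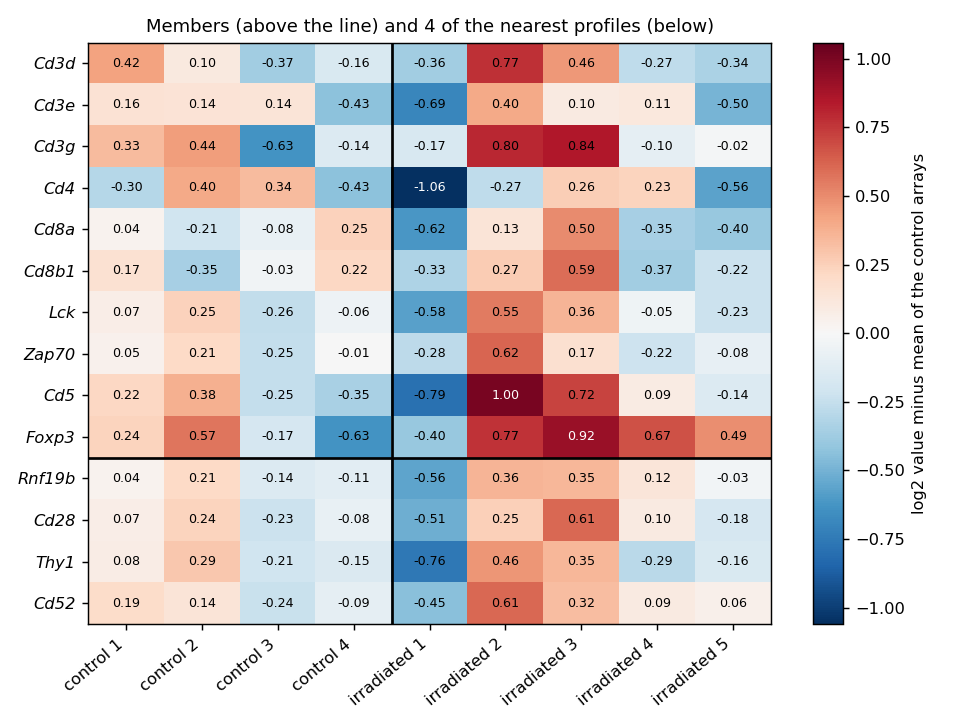
Log2 value minus the mean of the control arrays (color and number) for the 10 genes above the line and 4 of the nearest profiles below it, on each of the 9 arrays (columns). Irradiated array 1 is below the control mean in every row, irradiated 3 is above it in every row, and irradiated 2 is above it in all rows but Cd4.

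Within the scan pairs, the 10 genes had different signs. Cd3g, Cd5 and Foxp3 were higher in the irradiated array of all 4 pairs, which is 3 of 10 genes where 17.9% of all genes were higher in all 4 pairs. None of the 10 was lower in all 4, where 17.3% of all genes were. For Foxp3 the irradiated minus control differences were 0.53, 0.35, 0.84 and 1.12 in the pairs of controls 1 to 4. Those of Cd3g were 0.47, 0.40, 0.54 and 0.13, and those of Cd5 were 0.78, 0.34, 0.34 and 0.20.

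In a limma fit with the scan pair as a block, to which irradiated array 1 contributes nothing, Foxp3 differed by 0.71 ± 0.16 (SE, 4 pairs, adjusted p = 0.0849), Cd3g by 0.38 ± 0.085 (adjusted p = 0.0852) and Cd5 by 0.42 ± 0.11 (adjusted p = 0.114). These 3 genes had an unadjusted p below 0.05 there, and 0 of the 10 passed the adjusted threshold, which 2.81% of probes did. With the pair as a random block, which keeps irradiated array 1, the adjusted p was 0.105 for Foxp3, 0.256 for Cd3g and 0.400 for Cd5, and again 0 of the 10 genes were called while 7.37% of probes were.

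The remaining 7 genes had mixed signs. Cd8a changed by 0.096, 0.71, -0.27 and -0.65 within the 4 pairs, and Cd8b1 by 0.10, 0.94, -0.34 and -0.44. Both CD8 chains were thus higher in the pairs of controls 1 and 2 and lower in the others. Cd4 changed by 0.037, -0.13, -0.11 and -0.13, the smallest standard error of the 10 in the block fit (0.053, with a difference of -0.083 and an adjusted p of 0.441).

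**Figure D4:**
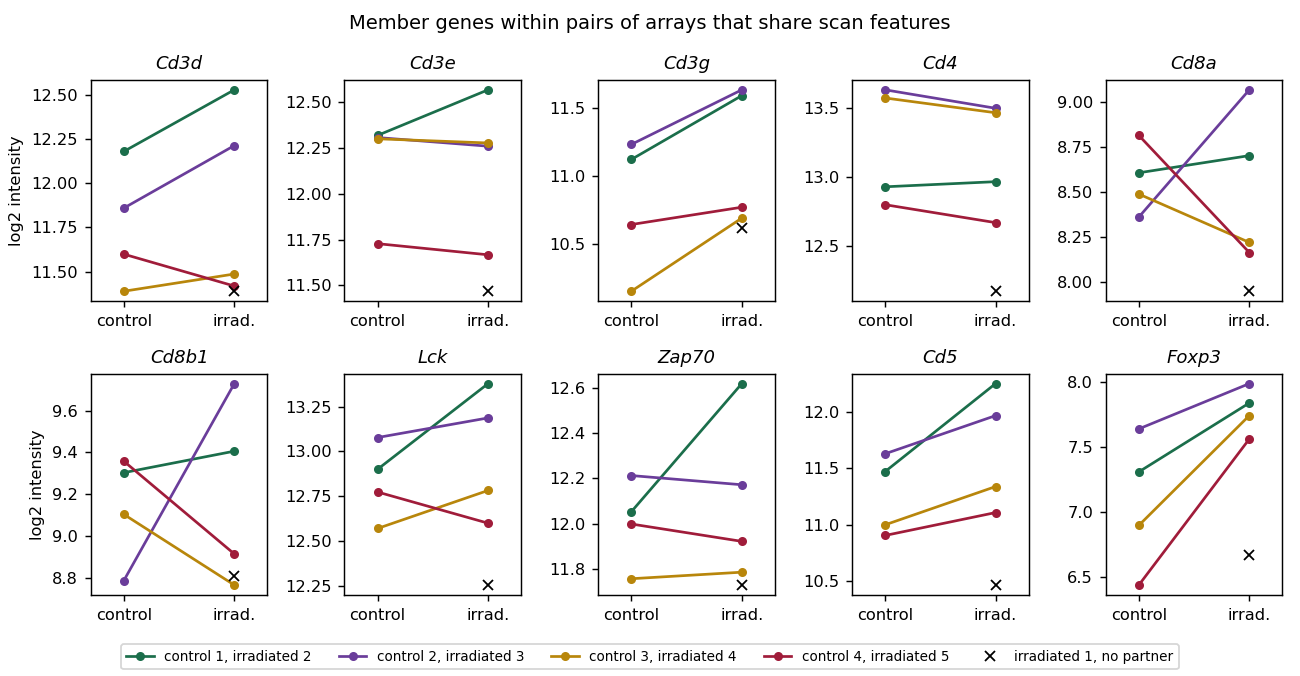
Log2 intensity (y axis) of each gene in the control and the irradiated array of the 4 scan pairs (colored lines), with irradiated array 1, which has no partner, as a cross. The lines of Cd3g, Cd5 and Foxp3 all rise from control to irradiated, while those of Cd8a and Cd8b1 rise in 2 pairs and fall in 2.

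Further genes of the T-cell receptor pathway were described by counts. Among 6 further receptor chains and adaptors, 2 were matched by accession: Cd247, the CD3 zeta chain, with a difference of 0.36 ± 0.31 (SE), and Trat1, a receptor-associated adaptor, with 0.72 ± 0.37. Neither was called, and both were higher in all 4 scan pairs. Of 23 genes of receptor signaling, 0 were called, 13 lay above 0 and 10 below, and the median difference was 0.028. The brightest of them were Thy1, at -0.078 ± 0.24 (SE), and Cd2, an adhesion receptor of T and natural killer cells, at -0.021 ± 0.093. In the scan pairs, 9 of the 23 were higher in all 4 and 3 lower in all 4, beside 17.9% and 17.3% of all genes. With the scan pair as a block, Lat, the adaptor that ZAP-70 phosphorylates, was called as higher at 0.60 ± 0.083 (SE, limma, adjusted p = 0.0402), and so was Ptpn22, a phosphatase that restrains the receptor signal, at 0.39 ± 0.063 (adjusted p = 0.0491). Lat was also called without irradiated array 1, at 0.59 (adjusted p = 0.0302), and neither was called with the pair as a random block. Of all probes, 2.81% were called with the scan pair as a block and 7.37% with it as a random block.

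Among 10 transcription factors of T cells, 0 were called, with a median difference of -0.056. The brightest were Zbtb7b, which directs the CD4 lineage, at -0.19 ± 0.13 (SE), and Ets1, at -0.076 ± 0.19. Satb1, a chromatin organizer of T cells named after its values were seen, had an unadjusted p of 0.0117, with 11.32 to 11.49 on the controls and 11.00 to 11.30 on the irradiated arrays (difference -0.28, limma, adjusted p = 0.292). It was called as lower with the scan pair as a random block, at -0.27 (adjusted p = 0.0405), but not with it as a fixed block. For 11 genes of recirculation and memory, 0 were called and the median was -0.057. The brightest were Klf2, a factor that keeps T cells circulating, at -0.24 ± 0.22, and S1pr1, the receptor by which they leave lymph nodes, at -0.057 ± 0.11. On irradiated 1, the lowest array of Lck, Klf2 was at 15.56. On irradiated 2, the highest array of Lck, Klf2 had its lowest value, 14.63. Which lung cells carried the RNA of these bright genes was not tested, here and in the list of regulatory T cells below.

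Other genes of regulatory T cells were read beside Foxp3. Of 12 genes, 0 were called, 9 lay above 0 and the median difference was 0.16. The brightest, Lrrc32, which presents latent TGF-beta, and Ebi3, a cytokine subunit, differed by 0.039 ± 0.15 (SE) and 0.048 ± 0.14. In the scan pairs, 6 of the 12 were higher in all 4 and 1, Izumo1r at -0.35, was lower in all 4, beside 17.9% and 17.3% of all genes. Il2ra, the interleukin-2 receptor alpha chain, was among these and was named after its values were seen. It had log2 intensities of 8.71, 8.72, 8.58 and 8.55 on the controls and 8.26, 9.33, 9.35, 9.21 and 9.06 on the irradiated arrays. Irradiated 2 to 5 lay above all controls and irradiated 1 below them (difference 0.40 ± 0.22, limma, adjusted p = 0.608). With the scan pair as a block, to which irradiated 1 contributes nothing, Il2ra was called as higher, at 0.60 ± 0.073 (SE, adjusted p = 0.0345). Ctla4, an inhibitory receptor of T cells, was called there as well, at 0.89 ± 0.13 (adjusted p = 0.0444). Over all 9 arrays it differed by 0.71 ± 0.58 (limma, adjusted p = 0.788). On control 4 Ctla4 was at 4.14, where the lowest signal well above background was 3.94, so the size of its difference is uncertain. With the scan pair as a block no other gene of this list was called, while 2.81% of all probes were. With the pair as a random block no gene of this list was called, while 7.37% of all probes were. Gpr83, a receptor gene listed with this cell type, was not well above background on any array.

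Markers of other cells that lung tissue can hold are given because their levels moved between the arrays as well, and their part in the values of the 10 genes was not tested. No gene of these lists was called over all 9 arrays. The calls given below with the scan pair as a block stand beside 2.81% of all probes called there. Those with the pair as a random block stand beside 7.37%. The 12 B-cell genes had a median difference of -0.27, with 10 of 12 below 0, and their mean deviation was -0.22 to 0.27 on the controls and -0.45 to -0.23 on the irradiated arrays. The brightest, Cd79b, a B-cell receptor chain, and Vpreb3 differed by -0.38 ± 0.14 (SE, adjusted p = 0.358) and -0.66 ± 0.17 (adjusted p = 0.182). Vpreb3 was called as lower with the scan pair as a block (-0.74, limma, adjusted p = 0.0377) and as a random block (-0.71, adjusted p = 0.00711).

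The 11 macrophage genes had a median of 0.34, with levels of -0.34 to 0.45 on the controls and 0.097 to 0.27 on the irradiated arrays. Of these 11 genes, 8 lay above 0 and 3 below. Those below were Marco at -0.63, Siglecf at -0.47 and Cd163 at -0.55, named after their values were seen. Cd163 was well above background on only 3 control arrays and 1 irradiated array, so the size of its difference is uncertain. Their brightest genes, Chil3 and Lyz2, differed by 0.68 ± 0.36 (SE) and 0.30 ± 0.33, and Mrc1, the mannose receptor, named after its values were seen, by 0.60 ± 0.11 (limma, adjusted p = 0.065). Mrc1 was called as higher with the scan pair as a random block, at 0.60 (adjusted p = 0.00458), and without control array 1, at 0.70 (adjusted p = 0.0474), but not with the pair as a fixed block or without irradiated array 1. Adgre1, a macrophage surface receptor, was called as higher with the pair as a fixed block (0.86, adjusted p = 0.0420), as a random block (adjusted p = 0.00722) and without irradiated array 1 (adjusted p = 0.0159). Mertk was called with both blocks, Cd14 with the fixed block and Fcgr1 with the random block, all as higher. The 10 dendritic-cell genes had a median of 0.42, with levels of -0.42 to 0.44 on the controls and -0.096 to 0.88 on the irradiated arrays. Of these 10 genes, 9 lay above 0 and 1 below. Siglech and Irf8, their brightest, differed by -0.15 ± 0.19 and 0.11 ± 0.20. Itgax and Cd209a, named after their values were seen, differed by 0.70 ± 0.17 (limma, adjusted p = 0.150) and 0.54 ± 0.18 (adjusted p = 0.319), and both were called with the scan pair as a random block (adjusted p = 0.00910 and 0.0152) and without irradiated array 1 (adjusted p = 0.0388 and 0.0491). With the pair as a fixed block, Cd209a was called (adjusted p = 0.0350) and Itgax was not.

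For 12 natural killer genes, several of which cytotoxic T cells also express, the median was -0.11, and levels were -0.18 to 0.18 on the controls and -0.54 to 0.26 on the irradiated arrays. Gzma and Nkg7, genes of the cytotoxic granule, differed by -0.097 ± 0.29 (SE) and -0.12 ± 0.16. For 10 genes of lymph node and follicle, the median was -0.12, with levels of -0.32 to 0.46 and -0.52 to 0.50. Ccl21a, a chemokine that draws T cells, and Ltb differed by -0.53 ± 0.22 (adjusted p = 0.448) and 0.029 ± 0.19. Cxcl13, named after its values were seen, was lowest on irradiated 1, at 8.36, and highest on irradiated 2, at 12.53 (difference 0.56 ± 0.75). Glycam1, named likewise, was well above background on only 1 control and 3 irradiated arrays. Of these 10 genes, 5 lay above 0 and 5 below. The part of lymphoid tissue in the values was not tested.

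Thymus tissue was checked through 8 thymocyte genes, whose median difference was -0.053 with levels of -0.36 to 0.26 on the controls and -0.35 to 0.26 on the irradiated arrays. Of the defining genes, Rag2 was well above background on no array, Rag1, its partner recombinase, on 2 control and 0 irradiated arrays, and Ptcra, the pre-T-cell receptor alpha chain, on 2 control and 2 irradiated arrays. Dntt, the terminal transferase of early lymphocytes, was well above background on all 9 arrays, with a difference of 0.15. The part of thymus tissue in the values was not tested. The brightest of the list, Cd1d1, is not particular to the thymus and differed by -0.34 ± 0.18 (SE), and by -0.31 with the scan pair as a block, where it was called (limma, adjusted p = 0.0469). The 11 genes of lung epithelium and endothelium had a median of 0.083 and levels of -0.051 to 0.051 and -0.029 to 0.14. Sftpc, their brightest, held the highest value of every array, which quantile normalization makes nearly equal, so that its difference carries no information. Scgb1a1 differed by -0.030 ± 0.065, also near the top of the scale. The 12 reference genes had a median of 0.085 and levels of -0.096 to 0.077 and -0.0022 to 0.13, with 0.13 ± 0.097 for Actb and 0.070 ± 0.090 for Ppia.

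**Figure D5:**
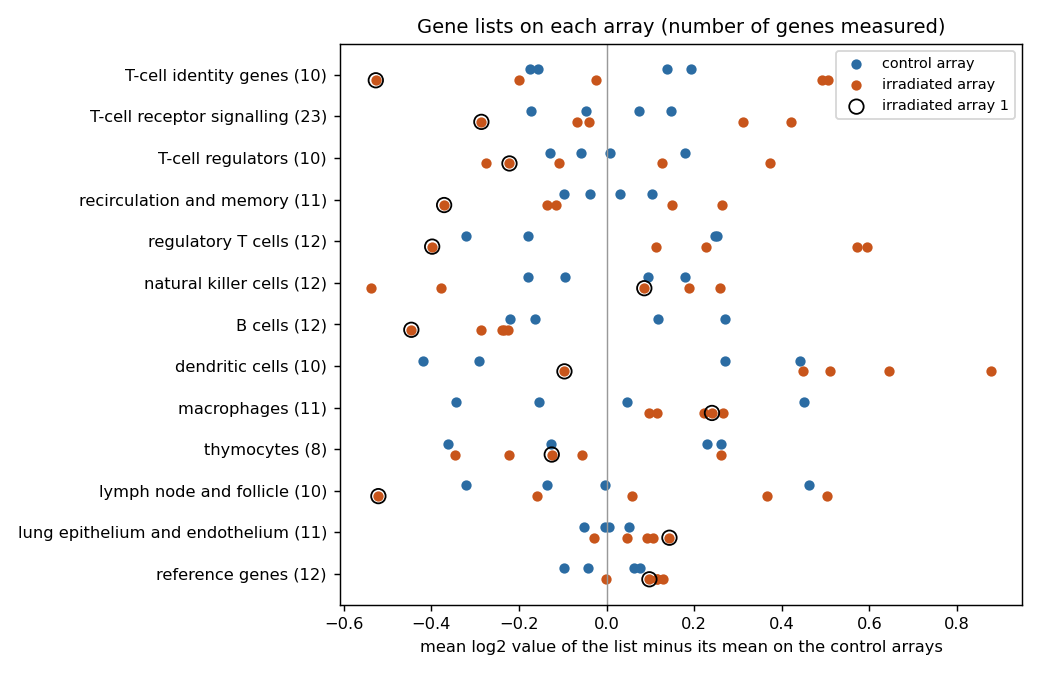
Mean log2 value of each gene list minus its mean on the control arrays (x axis), for the 4 control arrays (blue) and 5 irradiated arrays (orange), with irradiated array 1 circled and the number of genes measured in brackets. The T-cell identity genes span -0.53 to 0.50 on the irradiated arrays, on both sides of the controls, whereas the 12 B-cell genes lie at -0.45 to -0.23 there.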

How the data were processed

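The authors deposited, for each array, intensity values from Agilent Feature Extraction, corrected for background and not normalized between arrays, and a table of normalized intensity values. Control spots and outlier spots were dropped, and 39302 of 39429 probes, whose signal exceeded the local background by a factor of 1.4 in 4 or more of 9 arrays, were kept. Values were put on the log2 scale, quantile normalized, and averaged over the spots of a probe. Probes were named by accession through a RefSeq table of GRCm38.p6, and a gene was read by its brightest probe. Per array, 72.8% to 89.1% of spots were well above background and 0 were saturated. The small number of arrays limits precision.

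Groups were compared with limma (version 3.58.1, R 4.3.3) with an intensity trend and Benjamini-Hochberg adjustment over all probes, which was tested on simulated data. The members and all gene lists were chosen with earlier results of these data known, and so were tests and alternatives. Named beside the members were the 2 brightest genes of each list, genes past the threshold, the 5 nearest profiles and defining markers at or near background. Some genes that this rule names are not reported here. Alternatives were other background correction, scaling, filters, weights, blocks, variance without trend, probe summary, a stricter threshold, the authors' table, and leaving out each array. Same-numbered control and irradiated arrays had correlated deviations of -0.15 to 0.096 and were not treated as pairs, whereas scan pairs had 0.18 to 0.43.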

Additional observations from a re-analysis of the deposited data

Results flagged for a closer look

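In 48 groups of arrays (10 genes and 14 gene lists in 2 groups each), 3 had an array far from the others by Dixon's criterion, or 6.25%, where chance gives about 5%. The first was Cd3e, for which control array 4 was at 11.73 on the log2 scale and the other controls at 12.30 to 12.32. The second was the B-cell list, for which irradiated array 1 had a mean deviation of -0.45 and the other irradiated arrays -0.29 to -0.23. The last was the reference-gene list, for which irradiated array 4 had -0.0022 and the others 0.098 to 0.13. The cause of these values was not tested.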

How the results depend on the processing

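Over 20 alternatives, 9 of which left out an array, and at an adjusted p below 0.01, 0 of the 10 T-cell identity genes were called. Their lowest adjusted p was 0.0849, that of Foxp3 with the scan pair as a block. Their median difference ranged from -0.11 to 0.14, within the SD between arrays of 0.38. Cd3g, Cd4, Cd8a and Foxp3 kept their sign under all 20. Cd3e turned to 0.029 with the scan pair as a block, and Zap70 to -0.0029 in the authors' table. Cd8b1 turned to 0.066 with the scan pair as a block and 0.035 with it as a random block. Leaving out an array gave -0.13 to 0.19 for Cd3d, -0.26 to 0.029 for Cd3e, 0.062 to 0.42 for Cd3g, -0.42 to -0.083 for Cd4, -0.31 to -0.028 for Cd8a, -0.16 to 0.078 for Cd8b1, -0.12 to 0.16 for Lck, -0.10 to 0.12 for Zap70, -0.032 to 0.41 for Cd5 and 0.28 to 0.70 for Foxp3. Without irradiated array 2, Cd3d, Lck, Zap70 and Cd5 turned below 0, which left 2 of the 10 genes above 0. Without control array 3, Cd3d, Lck and Zap70 turned below 0, which left 3. Cd3d and Lck also turned below 0 without irradiated array 3 and without control array 4.

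The number of probes called was 131 over all arrays (75 higher and 56 lower). It was 124 with scaling to the 75th percentile (52 higher and 72 lower) and 44 in the authors' table (11 higher and 33 lower). With the background filter on all 9 arrays it was 197, without an intensity trend 44, and at an adjusted p below 0.01 it was 5. With the scan pair as a block it was 1105, and as a random block 2898. Without an array it was 5 (control 3) to 483 (irradiated 1), with 46, 11 and 8 without controls 1, 2 and 4 and 14, 6, 21 and 24 without irradiated 2 to 5. With the replicate number as a block, 1 probe was called, Cd8b1 turned to 0.040, and no call among the 10 genes changed. Of the genes of the other lists, 0 were called over all arrays. The scan pair as a block gave 10, where 2.81% of all probes were called. These were Adgre1, Cd14, Cd1d1, Cd209a, Ctla4, Il2ra, Lat, Mertk, Ptpn22 and Vpreb3. The pair as a random block also gave 10, where 7.37% of all probes were called. Among them were Adgre1, Cd209a, Cr2, Fcgr1, Itgax, Mertk, Mrc1, Satb1 and Vpreb3. Without irradiated array 1, 4 were called (Adgre1, Cd209a, Itgax and Lat), without control array 1 only 1 (Mrc1) and without any other array 0. The cause of these shifts was not tested.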
